A study of Mus musculus with 4 samples.

Results

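The Foxp genes encode 4 forkhead transcription factors, Foxp1, Foxp2, Foxp3 and Foxp4, and their transcripts were followed here in 4 mouse mammary tumours, with 1 Affymetrix mouse genome array for each tumour. A probe set, the group of short probes that together read 1 transcript region, was counted as a member when the array annotation gave it a single gene symbol and that symbol was a Foxp gene. This gave 18 of 45101 probe sets on the array: 8 for Foxp1, 6 for Foxp2, 3 for Foxp4 and 1 for Foxp3. The family was chosen because Foxp2 was already known to be high in 1 of the groups, so the member values below describe this comparison, and whether a member passed the threshold of the fit over all probe sets is stated as part of that description, with nothing read from it.

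The tumours grew in nude mice, hosts that lack a thymus, after transplantation of Eph4 cells, an established mouse mammary epithelial line. All 4 tumours carried ETV6-NTRK3, a fusion of a transcription factor gene with the kinase part of a neurotrophin receptor gene, introduced by transduction. The 2 tumours called EN carried the fusion alone, and the 2 tumours called EN-TAM67 also expressed TAM67, a c-Jun that lacks its activating part and blocks AP-1, the Jun and Fos transcription factor complex. The comparison asks what changes when AP-1 is blocked in tumours driven by the fusion. Whether the transduced cells were a clone or a pool, and the age and sex of the hosts, are not given in the sources used here, and only a tumour number separates the samples of a group.

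Foxp proteins bind DNA through a forkhead domain and pair with themselves and with each other through a leucine zipper, and they act mostly as repressors. Foxp2 is best known from brain circuits used for vocal learning and from lung epithelium, Foxp1 from B cell, heart and lung development, Foxp4 from lung and gut epithelium, and Foxp3 as the factor that defines regulatory T cells. Since the family members can pair with each other, the level of each paralogue is given beside that of Foxp2.

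Foxp2 signal was higher in EN-TAM67 than in EN tumours in all 6 of its probe sets by group mean, and the groups did not overlap in 5 of the 6 (over all probe sets on the array, groups were apart with EN-TAM67 higher in 21.5% and lower in 15.9%). The mean intensity was 1.74 to 5.79 times that of EN in 5 of them, and 1441365_at was too dim in EN tumours for an exact fold. Past an adjusted p of 0.05 were 4 of the 6 Foxp2 probe sets, all higher, where 0.0555% of all probe sets tested were higher, 0.17% lower and 0.226% in either direction. All 4 lost the call when limma was run without its intensity trend, and 3 lost it with the tumour number as a block. The paralogues had 12 probe sets, of which 8 were bright enough to be tested, and 0 of these passed in either direction, although 3 Foxp1 probe sets taken from the same transcript sequence all read lower in EN-TAM67 tumours. A difference is the EN-TAM67 mean less the EN mean of log2(intensity + 16), given with the standard error (SE) of the limma fit and n = 2 tumours per group, and the added 16 understates the difference of dim probe sets. The median difference over all 27022 probe sets tested was 0.041.

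**Figure D1:**
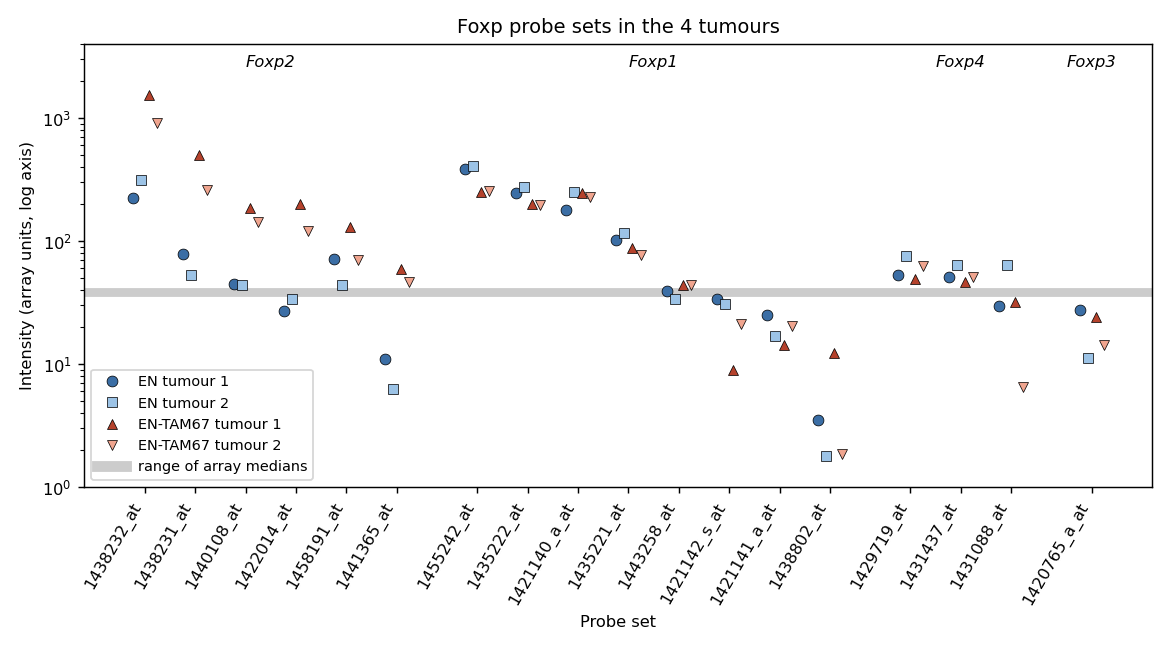
Intensity of every Foxp probe set on each of the 4 arrays, on a log axis, with circles and squares for the EN tumours, triangles for the EN-TAM67 tumours and a grey band for the range of array medians (35.6 to 40.8). In Foxp2 both triangles lie above both EN symbols in 5 of 6 probe sets, whereas Foxp3 and several Foxp1 and Foxp4 probe sets lie near or under the band.

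The brightest Foxp2 probe set, 1438232_at, read 226 and 311 intensity units in EN tumours 1 and 2, and 1529.5 and 909 in EN-TAM67 tumours 1 and 2. The EN-TAM67 mean was 4.54 times the EN mean, and the log2 difference was 2.09 ± 0.25 (SE). Even the closest pair of tumours from different groups, EN tumour 2 and EN-TAM67 tumour 2, differed by 1.50 on the log2 scale. On its array the probe set stood at the 90.6th and 92.4th percentile of all probe sets in EN tumours and at the 98.9th and 98.1st in EN-TAM67 tumours.

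Probe set 1438231_at, designed from the same representative sequence as 1438232_at and therefore no independent reading, gave 79.0 and 53.2 units in EN tumours against 504 and 261 in EN-TAM67 tumours. Its log2 difference was 2.23 ± 0.29. Its EN values, like those of 1438232_at, lay above the array medians.

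Probe sets 1422014_at and 1440108_at were each designed from a different sequence. The first read 27.3 and 33.5 units in EN against 202 and 120.3 in EN-TAM67 tumours, a difference of 1.90 ± 0.26. The second read 44.7 and 43.7 units in EN against 184 and 142 in EN-TAM67 tumours, a difference of 1.57 ± 0.23. In both, the lowest EN-TAM67 value stood well clear of the highest EN value, by 1.46 and 1.38 on the log2 scale.

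Of the remaining Foxp2 probe sets, 1 was dim in EN tumours and 1 had overlapping groups. Probe set 1441365_at read 11.1 and 6.25 units in EN against 59.0 and 46.7 in EN-TAM67 tumours, a difference of 1.48 ± 0.47. Its EN values lay far below the array medians, and it passed the filter on dim probe sets, a mean above 27.2 units, only through the EN-TAM67 group. Probe set 1458191_at read 71.5 and 44.1 units in EN against 131 and 70.3 in EN-TAM67 tumours. Here the groups overlapped, because EN tumour 1 and EN-TAM67 tumour 2 were nearly equal, and the difference was 0.63 ± 0.28. It stood at 0.25 without EN-TAM67 tumour 1 and at 1.02 without EN-TAM67 tumour 2.

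By limma with Benjamini-Hochberg adjustment over all probe sets, 4 of the 6 Foxp2 probe sets were past an adjusted p of 0.05 (1438232_at, 1438231_at, 1422014_at and 1440108_at), and 1441365_at and 1458191_at were not. With the tumour number as a block 1438231_at alone was past it. Since Foxp2 was chosen on this contrast, nothing is read from its counts beside the shares over all probe sets.

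The Foxp2 probe sets also shared an order that the choice of the gene did not fix. In all 6, of which 2 share 1 representative sequence, EN-TAM67 tumour 1 read higher than EN-TAM67 tumour 2, by a factor of 1.26 to 1.93. The same order was in 4 of 8 Foxp1, 1 of 3 Foxp4 and 1 of 1 Foxp3 probe sets. Its share over all probe sets was not counted. The EN tumours had no common order, with tumour 1 higher in 4 probe sets and lower in 2. These probe sets read 1 gene in the same RNA, so the order describes those tumours only.

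**Figure D2:**
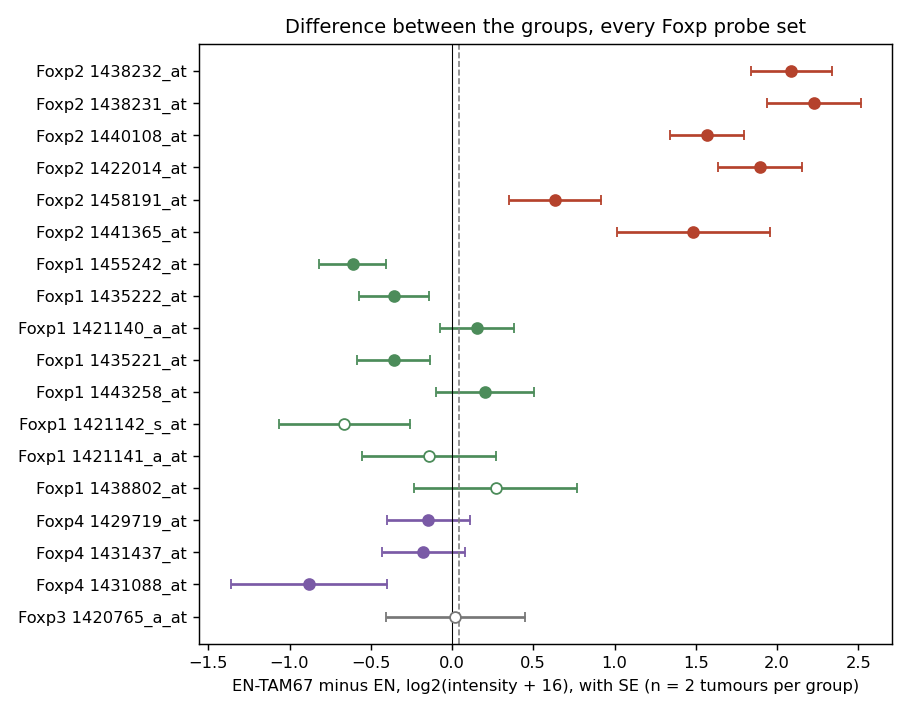
Difference between the groups for every Foxp probe set, as EN-TAM67 less EN in log2(intensity + 16) with bars of 1 SE; open symbols failed the filter on dim probe sets, and the dashed line is the median of all probe sets tested (0.041). The 6 Foxp2 probe sets lie between 0.63 and 2.23. The Foxp1 probe sets lie on both sides of 0, between -0.66 and 0.27, and all 3 Foxp4 probe sets lie below 0, between -0.88 and -0.15.

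Foxp1, a dimer partner of Foxp2, was read by 8 probe sets, of which 5 passed the filter on dim probe sets and 0 passed the threshold (limma, with 1 at an unadjusted p under 0.05 against 9.48% of all probe sets tested). The brightest, 1455242_at, read 388 and 405 units in EN against 251 and 257 in EN-TAM67 tumours, a difference of -0.61 ± 0.21. Probe set 1435222_at read 245 and 275 units in EN against 202 and 197 in EN-TAM67 tumours (-0.36 ± 0.21). Probe set 1435221_at read 102 and 117 units in EN against 87.6 and 76.6 in EN-TAM67 tumours (-0.36 ± 0.22). In these 3, designed from 1 and the same representative sequence, both EN-TAM67 tumours read below both EN tumours.

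The other 5 Foxp1 probe sets lay in both directions. Probe set 1421140_a_at, whose suffix marks probes common to several transcripts of the gene, read 177 and 251 units in EN against 244 and 229 in EN-TAM67 tumours. The groups overlapped, the difference was 0.15 ± 0.23, and it turned to -0.079 without EN tumour 1. Probe set 1443258_at read 39.2 and 33.6 units in EN against 43.85 and 44.4 in EN-TAM67 tumours (0.20 ± 0.30), close to the array medians. The filter left out 3 dim Foxp1 probe sets. Of these, 1421142_s_at read 33.6 and 30.8 units in EN against 8.90 and 21.1 in EN-TAM67 tumours, all below the array medians, with the groups apart (-0.66 ± 0.40). The other two, 1421141_a_at at -0.14 ± 0.41 and 1438802_at at 0.27 ± 0.50, had overlapping groups. Over the 8 Foxp1 probe sets the groups were thus apart with EN-TAM67 lower in 4, apart with EN-TAM67 higher in 1 and overlapping in 3. Over all probe sets on the array, groups were apart with EN-TAM67 lower in 15.9% and higher in 21.5%. Of the 4 lower, 3 share 1 representative sequence and the other, 1421142_s_at, failed the filter, so nothing is read from this count. Probe sets 1421140_a_at, 1421141_a_at and 1421142_s_at come from 1 representative sequence, and their differences ran from -0.66 to 0.15. The mean over the Foxp1 probe sets that passed the filter was -0.19 ± 0.19, which did not pass the threshold.

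The RefSeq promoter table (GRCm38.p6) matched 3 of the 4 genes, Foxp1, Foxp3 and Foxp4, with 6 windows. The 3 starts of Foxp1 are shown because Foxp1 had several probe sets apart between the groups, a count from which nothing is read. Whether these windows bear on the Foxp1 values was not tested. Each line is the 250 bases before a start, 5′ to 3′ on the gene's strand, and capitals mark the forkhead core TGTTTA or its reverse complement.
Foxp1 start at chr6:99520994-99521243 (strand -): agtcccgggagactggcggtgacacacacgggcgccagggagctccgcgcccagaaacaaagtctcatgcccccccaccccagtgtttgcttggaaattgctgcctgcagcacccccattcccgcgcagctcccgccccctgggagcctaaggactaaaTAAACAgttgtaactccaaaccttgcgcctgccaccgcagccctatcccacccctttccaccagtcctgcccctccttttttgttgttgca
Foxp1 start at chr6:99266516-99266765 (strand -): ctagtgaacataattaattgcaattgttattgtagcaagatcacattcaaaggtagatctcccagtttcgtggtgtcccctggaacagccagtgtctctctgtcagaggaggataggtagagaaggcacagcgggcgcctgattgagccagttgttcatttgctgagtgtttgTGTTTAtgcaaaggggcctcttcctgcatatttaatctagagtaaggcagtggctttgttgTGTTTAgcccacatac
Foxp1 start at chr6:99028299-99028548 (strand -): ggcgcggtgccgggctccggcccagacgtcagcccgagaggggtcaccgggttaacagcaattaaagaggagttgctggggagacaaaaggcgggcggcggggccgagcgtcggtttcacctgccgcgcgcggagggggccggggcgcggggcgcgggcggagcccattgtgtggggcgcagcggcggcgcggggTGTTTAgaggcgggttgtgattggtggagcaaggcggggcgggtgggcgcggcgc

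The AP-1 site TGAGTCA, searched on both strands, was in 0 of the 6 Foxp windows and in 4.46% of all 32851 windows of the same length. The cyclic AMP response element TGACGTCA was in 0 of 6 and in 1.55% of all windows. The forkhead core TGTTTA was in all 3 Foxp1 windows, 1 of 2 Foxp3 windows and 0 of 1 Foxp4 window, against 12% of all windows. The longer TGTTTAC, which contains that core, was in 0 of 6 and in 3.17% of all windows. The core was added after a first look at these windows, and a match or its absence is a description of letters only.

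Foxp4 was read by 3 probe sets, all with negative differences and 0 past the threshold (limma, 0 at an unadjusted p under 0.05). Probe set 1429719_at read 52.7 and 75.3 units in EN against 49.2 and 62.6 in EN-TAM67 tumours, with overlapping groups (-0.15 ± 0.25, and 0.059 without EN tumour 2). Probe set 1431437_at read 51.0 and 63.4 units in EN against 46.5 and 50.6 in EN-TAM67 tumours (-0.18 ± 0.25). The groups missed each other there by only 0.0087 on the log2 scale. Probe set 1431088_at read 29.7 and 64.4 units in EN against 32.1 and 6.53 in EN-TAM67 tumours, and 2 tumours, EN tumour 2 and EN-TAM67 tumour 2, set its difference of -0.88 ± 0.48. Without EN-TAM67 tumour 2 it stood at -0.33. Its EN-TAM67 mean was 19.3 units, so 1431088_at passed the filter on dim probe sets only through the EN group. Without EN tumour 2 it failed that filter.

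Foxp3 was read by 1 probe set, at 27.5 and 11.2 units in EN against 24.1 and 14.3 in EN-TAM67 tumours. All 4 values lay below the array medians, and the probe set failed the filter on dim probe sets (0.020 ± 0.43 in a fit without that filter). Of 12 genes of regulatory T cells, 10 were named on the array, 7 were tested and 0 passed (limma, 0 at an unadjusted p under 0.05), with a median of 0.10. By the brightest probe set of each of 13325 genes tested 0.255% passed, so 0 of a list of this length is close to the share over all genes, here and in the lists that follow. Il2ra, the interleukin 2 receptor chain that such cells carry, read 4.47 to 38.8 units over the 4 arrays, and the inhibitory receptor Ctla4 read 36.0 to 43.7.

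T cell and B cell genes gave no call either. Of 10 T cell genes on the array 5 were tested and 0 passed (limma, 1 at an unadjusted p under 0.05, median -0.31). Cd247, 1 of the 5, had an EN-TAM67 mean of 20.0 units and passed the filter on dim probe sets only through the EN group. Cd3e, a chain of the T cell receptor complex, read 102 and 78.8 units in EN against 131 and 124 in EN-TAM67 tumours (0.44 ± 0.23), and Cd4 read 89.9 and 104 against 61.1 and 72.0 (-0.45 ± 0.23). Of 6 B cell genes, 1 was tested (Pax5, 0.68 ± 0.36) and did not pass, and Cd79a, a chain of the B cell receptor, stayed between 19.8 and 30.6 units. The EN mean of Pax5 was 23.5 units, so Pax5 passed the filter on dim probe sets only through the EN-TAM67 group. Summed over its genes, the regulatory T cell list read 523 and 474 units in EN against 531 and 553 in EN-TAM67 tumours, the T cell list 600.0 and 565 against 542 and 529, and the B cell list 168 and 75.0 against 163 and 151. Whether the Foxp1 signal belongs to such cells was not tested.

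Other forkhead genes gave no call. Of 33 other Fox genes on the array 22 passed the filter, and 0 of these passed the threshold (limma, 2 at an unadjusted p under 0.05), with 13 positive differences, 9 negative and a median of 0.063. Over all genes tested the median was 0.020. The largest other difference was that of Foxb1, a forkhead factor of the developing brain. It read 48.7 and 9.81 units in EN against 84.6 and 94.5 in EN-TAM67 tumours (1.37 ± 0.36). Foxk1, a regulator of metabolic genes, read 136 and 55.8 units in EN against 38.9 and 62.2 in EN-TAM67 tumours, with overlapping groups (-0.67 ± 0.32). Foxn1, the gene whose loss makes a mouse nude, was at 7.54 to 32.9 units on all 4 arrays, below every array median.

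**Figure D3:**
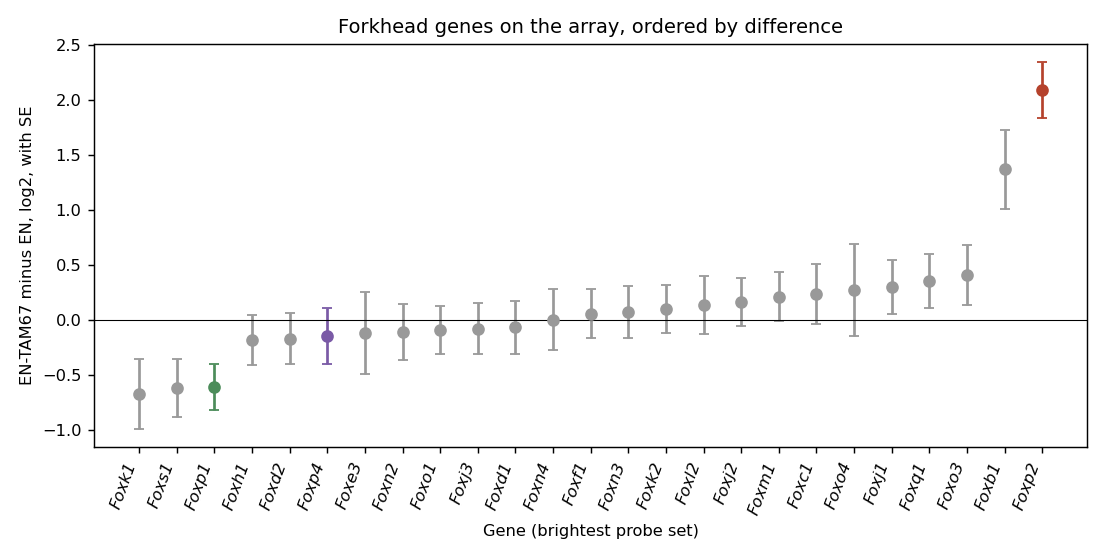
Differences (EN-TAM67 minus EN, log2, with 1 SE) of the 25 forkhead genes that passed the filter on dim probe sets, each by its brightest probe set, in rising order; Foxp1, Foxp2 and Foxp4 are coloured. Foxp2 lies at 2.09 and Foxb1 at 1.37, and the others lie between -0.67 and 0.41.

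Genes that work with Foxp proteins were followed as a list of partners and corepressors. Of 17 listed partners and corepressors 16 were named on the array and 14 tested, and 0 passed where 0.255% of all genes did (limma, 0 at an unadjusted p under 0.05), with 6 positive, 8 negative and a median of -0.042. Hdac2, a histone deacetylase of corepressor complexes, read 318 and 391 units in EN against 551 and 415 in EN-TAM67 tumours (0.42 ± 0.22). Gatad2a, a subunit of the NuRD corepressor complex, read 239 and 192 units in EN against 154 and 159 in EN-TAM67 tumours (-0.42 ± 0.22). The C-terminal binding proteins, corepressors that Foxp1 and Foxp2 recruit, were at -0.16 ± 0.19 for Ctbp1 and 0.11 ± 0.22 for Ctbp2.

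A further list held genes described elsewhere as targets of Foxp1, Foxp2 or Foxp4. Of 18 listed, 17 were named on the array and 13 tested, and 0 passed where 0.255% of all genes did. Differences were positive in 6 and negative in 7, with a median of -0.11. By limma 3 were at an unadjusted p under 0.05, which 9.48% of all probe sets tested reached. These were Csf1r (-0.46 ± 0.18), Met (0.60 ± 0.25) and Rag1 (0.62 ± 0.28). The largest absolute differences were those of Agr2 and Tspan8, which were not among these 3. Agr2, a secretory protein folding factor, read 38.2 and 17.2 units in EN against 40.8 and 72.6 in EN-TAM67 tumours (0.74 ± 0.36). Tspan8, a tetraspanin of mammary stem cells, read 19.8 and 38.3 units in EN against 46.5 and 59.9 in EN-TAM67 tumours (0.64 ± 0.33). In both the groups did not overlap, for Agr2 by only 0.066 on the log2 scale. Over all probe sets on the array, groups were apart with EN-TAM67 higher in 21.5% and lower in 15.9%. Of the other targets tested, Met and Rag1 were apart and higher, and Csf1r, Plaur and Sftpc were apart and lower. The lowest EN values, 17.2 units for Agr2 and 19.8 for Tspan8, lay well below the array medians.

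The genes with the profile most like that of 1438232_at were ranked by the root mean square difference between log2 profiles centred over the 4 arrays, among 13322 genes. They were Aldh1a3 (0.13), a retinoic acid synthesis enzyme, 5930403N24Rik (0.18), Flrt3 (0.30), a leucine-rich repeat adhesion protein, Xist (0.32), the RNA of the inactive X chromosome, and Katnal2 (0.39). Other Foxp2 probe sets stood at 0.13 (1422014_at), 0.33, 0.34, 0.43 and 0.81 (1458191_at) on this measure. For 1458191_at, 735 genes were nearer to 1438232_at than it was. Aldh1a3, 5930403N24Rik, Flrt3 and Katnal2 read below 27.2 units in both EN tumours and passed the filter on dim probe sets only through the EN-TAM67 group, so the added 16 in part sets their profiles and their rank here. Aldh1a3 read 0.063 and 3.81 units in EN against 71.5 and 50.1 in EN-TAM67 tumours, and it did not pass the threshold (2.09 ± 0.56). Xist was bright, at 457 and 831 units in EN against 2491.5 and 1306 in EN-TAM67 tumours (1.52 ± 0.29, not called).

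**Figure D4:**
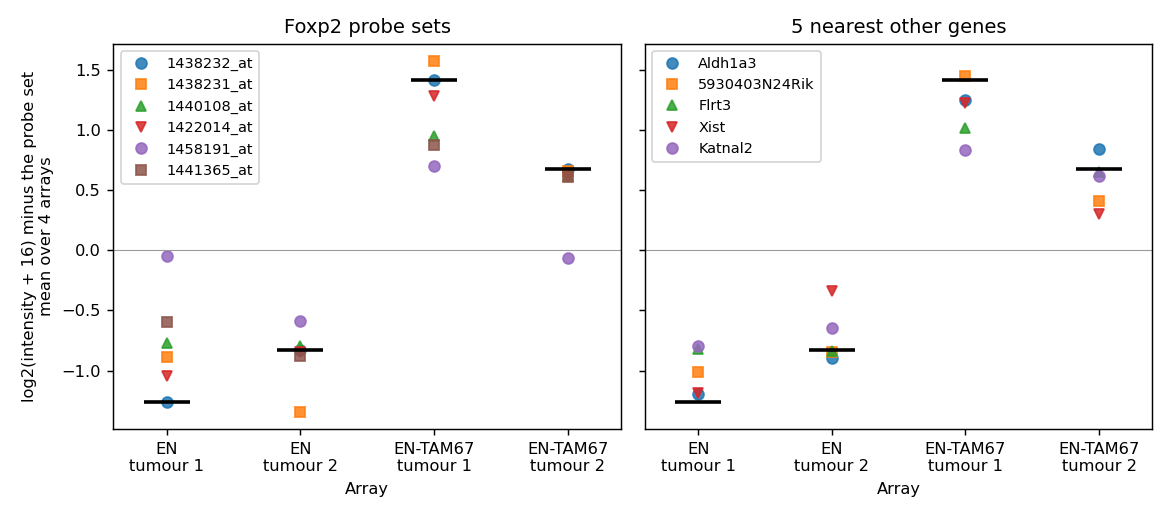
log2(intensity + 16) of each Foxp2 probe set (left) and of the 5 nearest other genes (right) on the 4 arrays, minus its own mean over the arrays; the black bars repeat 1438232_at in both panels. EN-TAM67 tumour 1 is the highest array for each Foxp2 probe set, and also for the 5 genes, which were picked for their likeness to 1438232_at.

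Genes beside Foxp2 on its chromosome were read from RefSeq gene order (GRCm38.p6), as the 3 nearest protein-coding genes with a probe set on each side. Ppp1r3a, next on one side, failed the filter on dim probe sets. It read 17.1 and 19.4 units in EN against 38.8 and 5.52 in EN-TAM67 tumours. Mdfic, next on the other side, read 317 and 302 units in EN against 451 and 380 in EN-TAM67 tumours, with groups apart and no call (0.40 ± 0.21). Gpr85, 2610001J05Rik and Tes differed by 0.23, 0.031 and 0.093 with overlapping groups, and Tfec, dim and untested, by -1.03 ± 0.43. None of these 6 neighbours differed upwards by as much as the first 4 Foxp2 probe sets.

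Markers of other cells moved between the same groups. In bulk tumours, more cells of a type and more RNA per cell cannot be told apart. The summed intensity of 10 adipocyte genes was 532 to 856 in EN tumours, and 1724 in EN-TAM67 tumour 1 against 6786 in EN-TAM67 tumour 2. Of 7 adipocyte genes tested, 1 rose (Car3, a carbonic anhydrase, 3.36 ± 0.41), where 0.255% of all genes passed, and all 7 were positive (median 1.71). Cidec, 1 of the 7, had overlapping groups. With an EN mean of 19.9 units, Cidec passed the filter on dim probe sets only through the EN-TAM67 group. Car3 lost the call in limma without the intensity trend, with robust variance and with the tumour number as a block. The sum of 9 skeletal muscle genes was 314 to 340.4 in EN against 421 to 508 in EN-TAM67 tumours. Of 5 tested, 3 were positive and 2 negative (median 0.19), and 1 rose. It was Myh1, a myosin heavy chain, which read 39.0 and 59.6 units in EN against 142 and 163 in EN-TAM67 tumours (1.39 ± 0.24) and so made up most of the change in the sum. Myh1 lost the call with median centring, without the intensity trend, with the tumour number as a block and without EN-TAM67 tumour 2. The 12 neuronal genes, markers of the cells in which Foxp2 is best known, summed to 415 and 415 units in EN against 374 and 409.8 in EN-TAM67 tumours, with 4 tested and 0 passing (median -0.098).

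In the epithelial and stromal lists 0 genes passed, but several stromal genes were lower at an unadjusted p under 0.05, which 9.48% of all probe sets tested reached. The 9 luminal genes summed to 3384 and 3686 units in EN against 2777 and 2767 in EN-TAM67 tumours (6 tested, 1 at an unadjusted p under 0.05, median -0.25), and the 7 basal genes to 1191 and 1212 against 1014 and 1213 (6 tested, 1 at an unadjusted p under 0.05, median -0.30). The 9 fibroblast genes summed to 19048 and 25894 units in EN against 17028 and 14707 (9 tested, 6 at an unadjusted p under 0.05, 8 negative, median -0.71). The 8 endothelial genes summed to 505 and 709.9 units in EN against 382 and 459.8 (4 tested, 2 at an unadjusted p under 0.05, all 4 negative, median -0.44). The 9 macrophage genes summed to 15073 and 13150.4 units in EN against 10525 and 8066 (9 tested, 4 at an unadjusted p under 0.05, 8 negative, median -0.46). In none of the 11 marker lists did a gene's brightest probe set read 0 on any array. The 3' to 5' signal ratio of Gapdh, a measure of RNA integrity, was 0.938 and 1.04 in EN against 1.17 and 1.11 in EN-TAM67 tumours. The same ratio of beta-actin was 1.108 and 1.195 in EN against 1.308 and 1.339 in EN-TAM67 tumours, so both ratios were apart between the groups. The part of these markers and of RNA integrity in the Foxp2 and Foxp1 values was not tested.

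**Figure D5:**
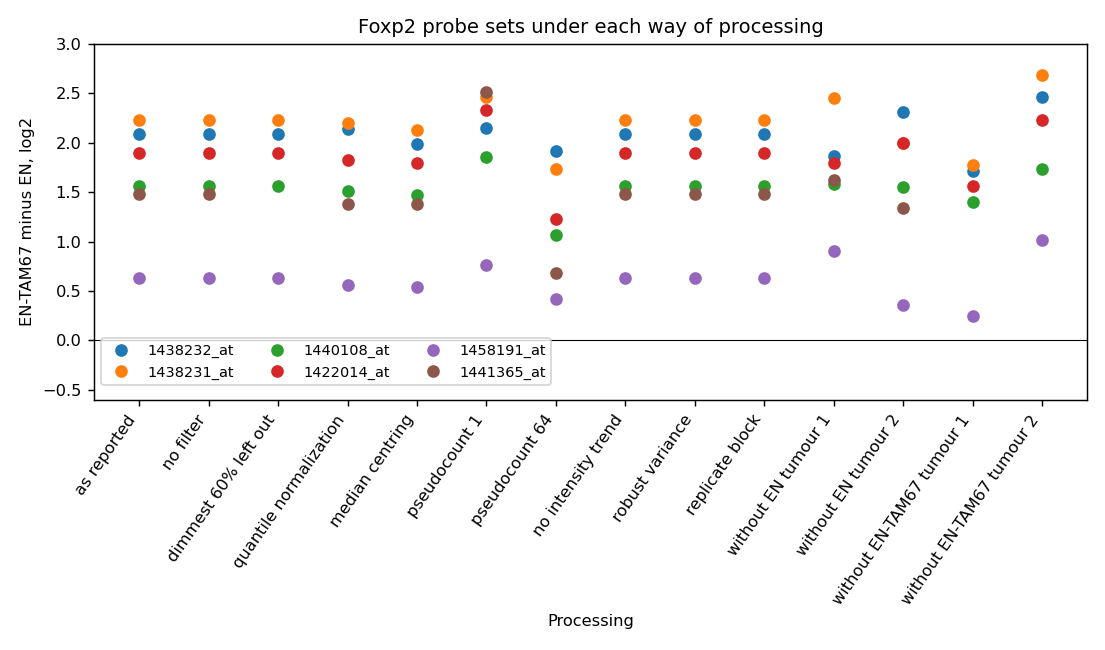
Difference between the groups (EN-TAM67 minus EN, log2) for each Foxp2 probe set under each way of processing, with 1441365_at missing where it failed the filter. Every value shown is above 0, from 0.25 for 1458191_at without EN-TAM67 tumour 1 to 2.68 for 1438231_at without EN-TAM67 tumour 2.

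The size of the Foxp2 differences moved with the added constant. From a pseudocount of 64 to 1, 1441365_at went from 0.68 to 2.52, 1422014_at from 1.23 to 2.33, 1440108_at from 1.07 to 1.85 and 1438231_at from 1.73 to 2.47, whereas the brightest, 1438232_at, went from 1.92 to 2.15. The 3 Foxp1 probe sets of 1 representative sequence stayed negative in all 14 fits to single probe sets, between -0.71 and -0.25, and passed the threshold in none of them.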

How the data were processed

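Values were analysed from 4 Affymetrix arrays, 1 per tumour. The deposited values are 1 linear intensity per probe set, made from biotin-labelled cRNA of Trizol-extracted RNA, per the labels' protocols; the authors' probe summary, background correction and scaling are not given in the sources used here. No detection call was used, and with 4 arrays it is their number that limits precision. No label says that a group's tumours came from separate cultures, and p-values then reflect only how far these samples differ, which can be technical.

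Probe sets were named by the platform annotation: 34945 had 1 symbol, 932 several and 9160 none, beside 64 controls. On log2(intensity + 16), controls and the dimmest 40% of probe sets by mean were left out. All 27022 others were fitted with limma 3.58.1 in R 4.3.3 (lmFit, eBayes with intensity trend; two-sided p-values adjusted by Benjamini-Hochberg, threshold 0.05). Every probe set was fitted because the question is whether all probe sets of a gene move. Lists were counted by each gene's brightest probe set in that fit, and dim members come from a fit without the filter. The fit was tested on simulated data.

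Members, lists and tests were chosen with earlier results of these data known. Named genes were all Foxp probe sets, list genes past the threshold, the 2 largest differences tested on the Fox, partner and target lists, the defining lymphocyte genes (1 is not reported here), and the 5 nearest profiles. Neighbouring genes, Foxn1, Foxs1, Ctbp1, Ctbp2, Pax5, Csf1r, Met, Rag1, Plaur and Sftpc were added after values were seen. Alternatives were other filters, normalizations, pseudocounts, gene summaries and variance models, a replicate block, and each array left out. Figures were drawn with matplotlib 3.10.9.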

Additional observations from a re-analysis of the deposited data

How the results depend on the processing

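The brightest Foxp2 probe set, 1438232_at, kept its direction in every alternative fitted to single probe sets, from 1.72 to 2.46 with each array left out. The mean over the Foxp2 probe sets, which is not a value of 1438232_at, was 1.65. That mean includes 1441365_at, which passed the filter on dim probe sets only through the EN-TAM67 group. Since Foxp2 was chosen on this contrast, these values describe this comparison only. The count of Foxp probe sets past the threshold was 4. Counted by gene it was 1 of 3, Foxp2, both for each gene's brightest probe set and for the mean over its probe sets. Over all 13325 genes, 77 passed by the brightest probe set and 43 by the mean. Without the intensity trend in limma the count of Foxp probe sets was 0 of 14, with 6 at an unadjusted p under 0.05. With the tumour number as a replicate block it was 1 (1438231_at). Same-numbered tumours share only a number: their deviations correlated at -0.038 across probe sets.

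Over all probe sets 61 passed (15 higher and 46 lower), against 151 without the filter on dim probe sets, 38 with median centring, 4 with the replicate block, 0 without the intensity trend (2129 at an unadjusted p under 0.05), and 55 to 373 with each array left out. The highest of these, 203 higher and 170 lower, was without EN tumour 2, and 167 passed without EN tumour 1. Such fits take the spread of the single tumour left in a group from the other group. The causes were not tested.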
